A study of Mus musculus with 16 samples.

Results

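Collagens are the proteins of the extracellular matrix whose chains wind into a triple helix. The collagen chains were taken from the deposited expression table by gene symbol: every symbol made of Col, a number, the letter a and a second number. The pattern matched 44 genes, and the 37 that reached 1 TPM or more in any of the 4 groups are described here, of 30286 distinct symbols in the table. TPM is a relative transcript level corrected for transcript length and sequencing depth. The 37 chains were 7 fibrillar chains of general connective tissue, 6 chains of cartilage, 9 of basement membranes, 4 transmembrane collagens, 4 beaded-filament chains of type VI, 5 fibril-associated chains and 2 others (Col26a1 and Col28a1). Just inside the limit were Col28a1, with a highest value of 1.11 TPM, and Col6a4, with 1.28 TPM. Just outside were Col4a3, at 0.97 TPM in its highest group, Col19a1 at 0.81 and Col6a6 at 0.79, and Col4a4, Col5a3, Col6a5 and Col10a1 were the other 4 chains left out.

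A collagen chain carries long stretches of repeated Gly-X-Y units, since glycine is the only residue small enough for the core of the helix. Fibrillar collagens build the ropes of connective tissue, type IV forms the sheet of the basement membrane under an epithelium, and transmembrane collagens stay anchored in the cell surface. In the embryonic face, neural crest mesenchyme is the main source of interstitial collagens, and the surface ectoderm rests on a basement membrane to which both layers contribute.

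The RNA came from facial prominences, the buds that give rise to the face. Embryos of the C57BL/6 strain were taken at embryonic day 12. The 4 groups were ectoderm of wild-type (WT) embryos, ectoderm of Esrp1-/- (knockout, KO) embryos, WT mesenchyme and KO mesenchyme, and the layers had been parted surgically. Each group had 4 libraries, each from a pool of 6 to 7 embryos, and Esrp1, a splicing regulator of epithelial cells, was disrupted in a way not given in the labels. The table gives 1 TPM value per group, so no value below has a replicate error, no difference could be tested, and "higher" and "lower" describe the deposited values. The depth behind each value is unknown. Some libraries carried 2 index barcodes, the tags that mark a library, and the others 1. In mesenchyme, 2 barcodes were listed for 2 of the 4 KO libraries and for 0 of the 4 from WT embryos. For ectoderm the counts were 2 of 4 with KO and 1 of 4 with WT tissue. With 1 value per group the part of this imbalance in the differences was not tested.

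Differences are given as log2 ratios of TPM plus 1, which understate the change of low genes. Chains with a mean under 1 TPM in the 2 groups of a comparison were left out of it. A chain was counted from 1.5-fold between KO and WT and from 2-fold between the layers. Esrp1 itself had 170 TPM in ectoderm of WT and 62.9 in that of KO embryos, and at 1.01 and 1.0 TPM in the mesenchyme groups. The layers differed in their defining markers: 16 epithelial genes added to 3458 TPM in WT ectoderm and 33.7 in WT mesenchyme, and 21 mesenchymal genes without collagens to 413 and 3128. In bulk tissue, fewer cells of a type and less RNA per cell cannot be told apart.

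The repeat that defines the family can be read in the coding sequence, because every glycine codon begins with GG. The stretches below are coding DNA of the longest coding transcript of each gene (GENCODE M21, GRCm38), written 5′ to 3′ in the sense of the mRNA. In the first 4, GGN codons are in capitals. Col1a1 (coding bases 502 to 564) and Col3a1 (490 to 552) show the start of a fibrillar helix, whose GGN codons then recur at intervals of 3 codons 338 and 344 times without a break. Col4a1 (451 to 513) and Col17a1 (2410 to 2472) show the end of their longest run, of 40 and 56 repeats, where the rhythm is lost.
Col1a1: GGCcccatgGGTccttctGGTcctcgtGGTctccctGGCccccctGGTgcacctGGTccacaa
Col3a1: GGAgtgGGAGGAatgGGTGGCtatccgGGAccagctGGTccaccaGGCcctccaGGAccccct
Col4a1: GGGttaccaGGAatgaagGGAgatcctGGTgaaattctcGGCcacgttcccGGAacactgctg
Col17a1: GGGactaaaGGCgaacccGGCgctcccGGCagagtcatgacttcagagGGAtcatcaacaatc

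The longest run ranged from 216 to 344 repeats in the 7 fibrillar chains and from 113 to 339 in the 6 cartilage chains, which include the fibrillar types II and XI. It was 30 to 75 repeats in the basement membrane chains, 37 to 56 in the transmembrane chains and 45 to 87 in the beaded-filament chains. In the fibril-associated chains it was 32 to 113 repeats and in the 2 others 23 to 28. Only fibrillar and cartilage chains thus had runs of more than 113 repeats. The ranges of the basement membrane, transmembrane, beaded-filament and fibril-associated classes overlapped.

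The codons around glycine also enter into how rich a chain's coding sequence is in G and C. Further on, the GC content of the whole transcript is set beside the values of KO mesenchyme. The 2 can differ: Col25a1 had 58.5% GC in its coding sequence and 45.9% over its transcript. Col5a1 and Col5a2 encode partner chains of type V collagen, and the same 7 repeats, from the 100th of the helix, are shown for both, with G or C at the third base of a codon in capitals (coding bases 2566 to 2628 and 1522 to 1584).
Col5a1: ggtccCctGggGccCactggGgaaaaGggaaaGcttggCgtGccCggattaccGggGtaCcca
Col5a2: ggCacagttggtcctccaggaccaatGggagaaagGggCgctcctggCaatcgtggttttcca

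In this stretch 13 of 21 codons ended in G or C in Col5a1 and 5 of 21 in Col5a2. Over the whole coding sequence the shares were 52.2% and 29.4%, and the transcripts had 58.0% and 49.6% GC.

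Collagen transcripts were more abundant in mesenchyme, and the gap between the layers was smaller in KO tissue. The 37 chains summed to 960 TPM in ectoderm of WT and 1272 in that of KO embryos, and to 3109 and 1861 TPM in mesenchyme. Basement membrane chains made up 50.3% of the collagen sum in WT ectoderm and 38.9% in KO ectoderm. Fibrillar chains made up 15.4% and 24.8% there, and 53.4% and 52.2% in WT and KO mesenchyme. The sum of the fibrillar class was thus higher in KO than in WT ectoderm (148 and 316 TPM) and lower in KO than in WT mesenchyme (1659 and 972 TPM).

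**Figure D1:**
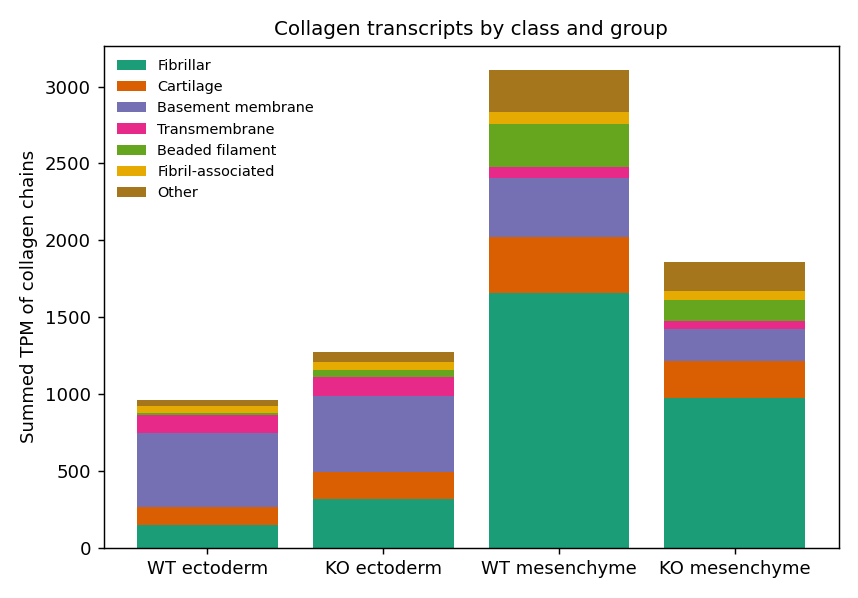
Summed TPM of the 37 collagen chains (vertical axis) in each group, 1 deposited value per chain and group, with the classes stacked in colours. The bar of WT mesenchyme (3109 TPM) is the tallest, and basement membrane chains fill about as much of the ectoderm bars (483 and 495 TPM) in WT and in KO.

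Most chains had their higher level in mesenchyme. Of 34 chains that entered the comparison of WT layers, 22 were at least 2-fold higher in mesenchyme (64.7%), against 12.1% of all genes tested. Another 5 were at least 2-fold higher in ectoderm, against 6.88% of all genes. The 5 ectodermal chains were Col17a1, Col18a1, Col7a1, Col4a5 and Col4a6, all of them components of the epithelial basement membrane or of the structures that fasten the epithelium to it. The median log2 ratio of mesenchyme to ectoderm was 1.76 over the chains and 0.15 over all genes.

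**Figure D2:**
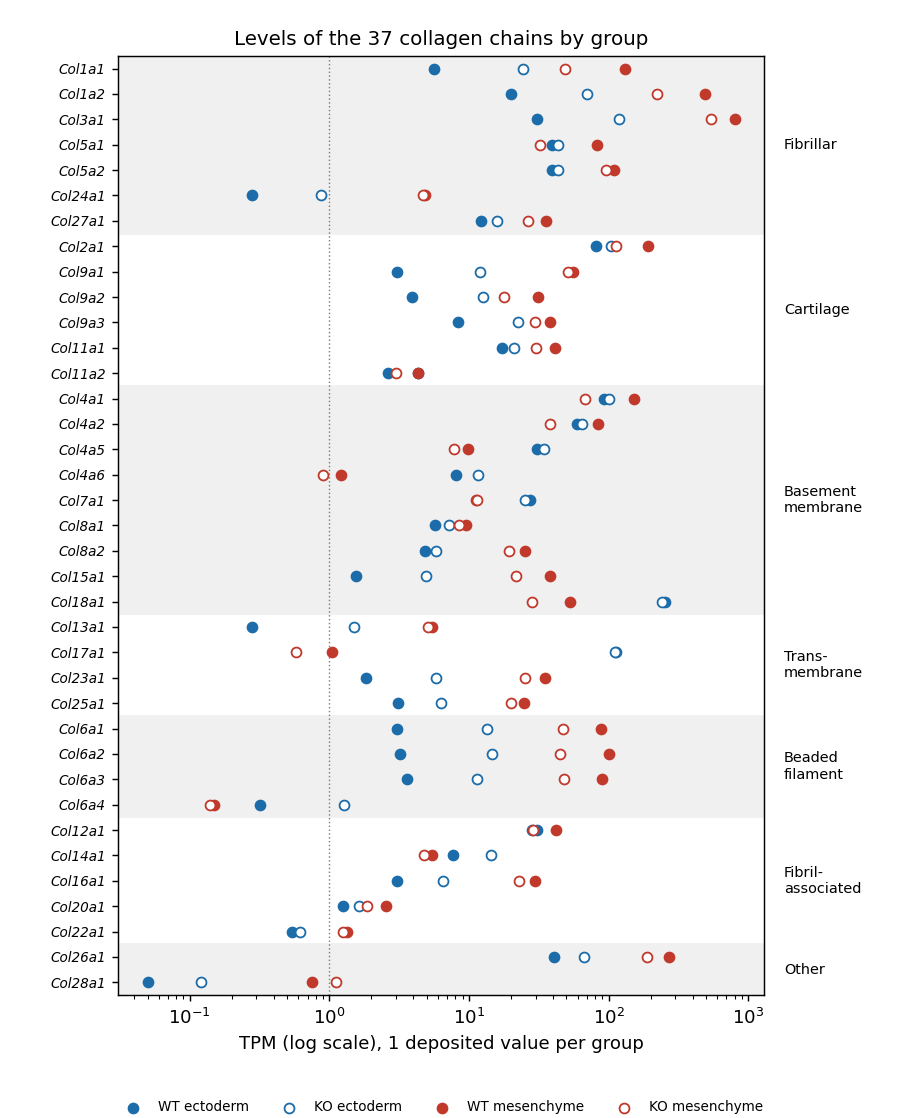
TPM on a log axis (horizontal) of the 37 collagen chains (rows, shaded by class) in WT and KO ectoderm (filled and open blue) and WT and KO mesenchyme (filled and open red), 1 deposited value per group. For most chains the open blue point lies to the right of the filled blue point and the open red point to the left of the filled red point; Col17a1 at 113 and 112 TPM and Col18a1 at 252 and 240 TPM in ectoderm stay nearly in place.

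Among the fibrillar chains, those of types I and III differed most between WT and KO ectoderm. Col1a1 (ENSMUSG00000001506.10, chromosome 11, 94936224 to 94953042, GRCm38), the main chain of type I collagen in bone, tendon and dermis, had 5.61 TPM in ectoderm of WT and 24.5 in that of KO embryos, and 132 and 49.1 TPM in mesenchyme. Its log2 ratio of KO to WT was 1.95 in ectoderm and -1.41 in mesenchyme, the highest and the lowest of all chains tested. Col1a2 (chromosome 6, 4504814 to 4541544), the second chain of the type I trimer, was at 19.9, 69.7, 489 and 224 TPM in the same order (WT then KO, ectoderm then mesenchyme), with log2 ratios of 1.76 and -1.13. Both genes were lowest in WT ectoderm and highest in WT mesenchyme, with the KO groups between.

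Col3a1, the chain of type III collagen in soft embryonic connective tissue, was the most abundant collagen of mesenchyme, with 806 TPM in WT and 540 TPM in KO embryos. In ectoderm it was at 31.0 and 118 TPM, a log2 ratio of 1.90, and the mesenchymal ratio of -0.58 lay just inside the 1.5-fold limit. It followed types I and VI in ectoderm but was less reduced than type I in mesenchyme. Type V chains, which nucleate type I fibrils and set their width, had a high level in WT ectoderm already: Col5a1 was at 39.7 TPM and Col5a2 at 39.1. Their KO ectoderm values were 43.8 and 43.1 TPM, a log2 ratio of 0.14 for each.

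In mesenchyme the type V partners parted. Col5a1 had 82.4 TPM in the WT group and 32.3 in the KO group (log2 ratio -1.33), whereas Col5a2 was at 110 and 96.0 TPM (-0.19). The ratio of Col5a1 to Col5a2 levels was 1.01 and 1.02 in WT and KO ectoderm, and 0.75 and 0.34 in WT and KO mesenchyme. These are the chains whose sequences differ in G and C as printed above. After the trend with transcript GC content, described further on, was subtracted, their ratios in mesenchyme were -0.81 and -0.02. Col27a1, a fibrillar collagen of developing cartilage, was at 12.3, 16.0, 35.6 and 26.4 TPM, and Col24a1, a minor fibrillar chain of forming bone, at 0.28, 0.87, 4.82 and 4.72. Neither was 1.5-fold apart between KO and WT where it was tested.

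Of the 7 fibrillar chains all had 2-fold or more transcript in mesenchyme of WT embryos, against 12.1% of all genes. In KO ectoderm 3 of 6 tested were higher (Col1a1, Col1a2 and Col3a1), against 4.92% of all genes. In KO mesenchyme 3 of 7 were lower (Col1a1, Col1a2 and Col5a1), against 13.4% of all genes, and the class median was -0.58. The same 3 were lower after the trend of that comparison with transcript GC content, described further on, was subtracted, against 2.11% of all genes.

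The cartilage chains split into the type IX group and the rest. Type IX collagen sits on the surface of type II fibrils. Col9a1 had 3.06 TPM in ectoderm of WT and 12.0 in that of KO embryos, and 55.9 and 51.5 in mesenchyme. Col9a2 was at 3.91, 12.6, 31.1 and 17.7 TPM, and Col9a3 at 8.40, 22.4, 38.2 and 29.5. All 3 chains were higher in KO ectoderm, with log2 ratios of 1.68, 1.47 and 1.31, against 4.92% of all genes. In mesenchyme only Col9a2 of the 3 was beyond 1.5-fold (-0.78).

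Col2a1, the main chain of cartilage fibrils, was also well represented in ectoderm: its values were 81.8, 104, 193 and 114 TPM, and the KO ratios were 0.34 in ectoderm and -0.75 in mesenchyme. Col11a1 and Col11a2, partners of type II in cartilage fibrils, were at 17.4, 21.1, 41.6 and 30.01 TPM and at 2.63, 4.34, 4.35 and 3.02 TPM. Their KO ratios were 0.26 and 0.56 in ectoderm and -0.46 and -0.41 in mesenchyme, all within 1.5-fold, and Col11a2 passed it at 0.70 in ectoderm with a pseudocount of 0.1. Type IX thus differed between KO and WT ectoderm and types II and XI did not reach the limit. In KO mesenchyme 2 of 6 cartilage chains were lower (Col2a1 and Col9a2), against 13.4% of all genes. After subtraction of the GC trend 0 of 6 were, against 2.11% of all genes. Col10a1, the chain of hypertrophic cartilage, was at most 0.04 TPM in any group.

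Basement membrane chains were close to WT in KO ectoderm, and the major type IV chains were lower in KO mesenchyme. Col18a1 (chromosome 10, 77052178 to 77166548), a proteoglycan core of epithelial and vascular basement membranes, was the most abundant collagen of ectoderm, with 252 TPM in WT and 240 TPM in KO embryos. In mesenchyme it was at 52.9 and 28.4 TPM, a log2 ratio of -0.88. Col7a1, which forms the anchoring fibrils under the epidermis, was at 27.2 and 25.1 TPM in ectoderm and at 11.3 and 11.5 in mesenchyme. Of all chains tested in KO mesenchyme Col7a1 alone had a ratio above 0 (0.02).

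Col4a1 and Col4a2 encode the ubiquitous type IV heterotrimer and lie head to head on chromosome 8 (11198423 to 11312826, minus strand, and 11312805 to 11449287, plus strand), with annotated starts 21 bases apart. Col4a1 had 93.2 TPM in ectoderm of WT and 101 in that of KO embryos, and 153 and 68.1 in mesenchyme. Col4a2 was at 59.2, 64.8, 83.4 and 37.97 TPM. The pair kept nearly the same proportion in every group, with Col4a1 at 1.57, 1.56, 1.84 and 1.79 times Col4a2, and the mesenchymal log2 ratios of -1.16 and -1.12 were alike.

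Col4a5 and Col4a6, the type IV chains of stratified epithelia, are also head to head, on the X chromosome, with starts 1309 bases apart. Col4a5 was at 30.9, 34.6, 9.87 and 7.82 TPM in the same order of groups and Col4a6 at 8.05, 11.7, 1.21 and 0.90. Both were higher in ectoderm, and neither was beyond 1.5-fold between KO and WT in either layer; the largest ratio was 0.49, for Col4a6 in ectoderm. The minor chains Col4a3 and Col4a4 did not reach 1 TPM.

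Col15a1, a basement membrane proteoglycan of vessels and muscle, was at 1.56, 4.93, 38.4 and 21.9 TPM, with log2 ratios of 1.21 in ectoderm and -0.78 in mesenchyme. It was the 1 of 9 basement membrane chains beyond 1.5-fold in KO ectoderm, against 4.92% of all genes higher and 0.452% lower. The type VIII chains, network-forming collagens of vessels and cornea, were nearer to WT: Col8a1 was at 5.72, 7.16, 9.46 and 8.54 TPM and Col8a2 at 4.82, 5.85, 25.3 and 19.3. Together 4 of 9 basement membrane chains were lower in KO mesenchyme (Col4a1, Col4a2, Col15a1 and Col18a1), against 13.4% of all genes. After subtraction of the GC trend 1 of 9 was (Col4a1), against 2.11% of all genes, and after GC and then length none, against 2.33%.

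The transmembrane collagens were on opposite sides of the layer boundary. Col17a1 (chromosome 19, 47646344 to 47692094, minus strand), the hemidesmosome collagen that ties basal epithelial cells to the basement membrane, had 113 TPM in ectoderm of WT and 112 in that of KO embryos, against 1.05 and 0.58 in mesenchyme. Its log2 ratio of mesenchyme to ectoderm in WT was -5.79, the lowest of all chains, and of KO to WT in ectoderm -0.02. It was the chain most specific to ectoderm and its levels there were nearly equal in the genotypes.

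Col23a1 was at 1.83, 5.80, 35.2 and 25.4 TPM and Col25a1, a collagen needed by motor nerves to reach muscle, at 3.09, 6.32, 24.9 and 20.02. Col13a1, found at muscle and nerve contacts, was at 0.28, 1.5, 5.46 and 5.11 TPM and was not tested in ectoderm, where its mean was below 1 TPM. All 3 were mesenchymal, by 2-fold or more in WT, against 12.1% of all genes. The KO ratios in ectoderm were 1.26 for Col23a1 and 0.84 for Col25a1. These were the 2 of 3 transmembrane chains tested that were higher, against 4.92% of all genes. None of Col13a1, Col23a1 and Col25a1 was 1.5-fold lower in KO mesenchyme, against 13.4% of all genes. Col17a1 was below the filter there.

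Type VI chains were far more abundant in mesenchyme. They assemble into beaded microfilaments around mesenchymal cells. Col6a1 had 3.05 TPM in ectoderm of WT and 13.5 in that of KO embryos, and 88.5 and 47.3 in mesenchyme. Col6a2, its neighbour on chromosome 10, was at 3.19, 14.5, 101 and 44.6 TPM, and Col6a3 at 3.61, 11.4, 89.9 and 48.1. The 3 partners had like levels in each group: Col6a1 was at 0.88 to 1.06 times Col6a2 and at 0.84 to 1.18 times Col6a3.

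All 3 were higher in KO ectoderm (log2 ratios 1.84, 1.89 and 1.43), against 4.92% of all genes. They were lower in KO mesenchyme (-0.89, -1.16 and -0.89), against 13.4% of all genes. After subtraction of the GC trend in mesenchyme, 1 of the 3 was lower (Col6a2), against 2.11% of all genes. Col6a4, a chain related to Col6a3, was instead most abundant in ectoderm of KO embryos (1.28 TPM), with 0.32 TPM in that of WT embryos and 0.15 and 0.14 TPM in mesenchyme. Its mean in ectoderm was below the 1 TPM filter, so it was not counted.

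Fibril-associated collagens link fibrils to their surroundings and varied among themselves. Col14a1, which coats fibrils in dermis and tendon, had 7.73 TPM in ectoderm of WT and 14.3 in that of KO embryos (log2 ratio 0.81), above both mesenchyme values of 5.47 and 4.77. Among the chains beyond 1.5-fold in KO ectoderm it was the only one whose WT ectoderm level exceeded that of WT mesenchyme. Col16a1 was at 3.05, 6.54, 29.8 and 22.8 TPM, with a ratio of 0.90 in ectoderm. Col12a1, a long chain of fascia and periosteum, was at 30.6, 28.4, 42.4 and 28.8 TPM, within 1.5-fold in both comparisons (-0.11 and -0.54). In KO ectoderm 2 of 4 fibril-associated chains tested were higher (Col14a1 and Col16a1), against 4.92% of all genes. In KO mesenchyme 0 of 5 were lower, against 13.4% of all genes.

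Col20a1 (1.25 to 2.55 TPM over the groups) and Col22a1 (0.54 to 1.34 TPM) were low throughout. Col26a1, a short collagen of the EMI-domain family, followed Col3a1 and Col1a2 in the order of WT mesenchyme at 272 TPM, with 188 in KO mesenchyme and 40.7 and 67.3 in WT and KO ectoderm. Its ratios were 0.71 in ectoderm and -0.53 in mesenchyme. Col28a1 stayed between 0.05 and 1.11 TPM.

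Over all classes, 15 of 32 chains tested were at least 1.5-fold higher in KO ectoderm (46.9%), against 4.92% of all genes, and none was lower, against 0.452% of all genes. The median log2 ratio was 0.52 over the chains and 0.05 over all genes. After the trend with transcript GC content was subtracted, 14 were higher and none lower, against 4.12% and 0.637% of all genes, and likewise 14 and none after GC and then length, against 4.11% and 0.644%; Col26a1 dropped out. In mesenchyme 12 of 34 chains were lower in KO (35.3%), against 13.4% of all genes, and none was higher, against 2.33%. The median was -0.44 over the chains and -0.12 over all genes. Of 31 chains tested in both layers, 28 were above 0 in ectoderm and below 0 in mesenchyme (90.3%), as were 43.9% of the 13283 genes tested in both. For 7 of the chains both ratios passed 1.5-fold (Col1a1, Col1a2, Col6a1, Col6a2, Col6a3, Col9a2 and Col15a1). The share of all genes for which both did so was not counted. The difference between the layers' ratios was not tested.

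**Figure D3:**
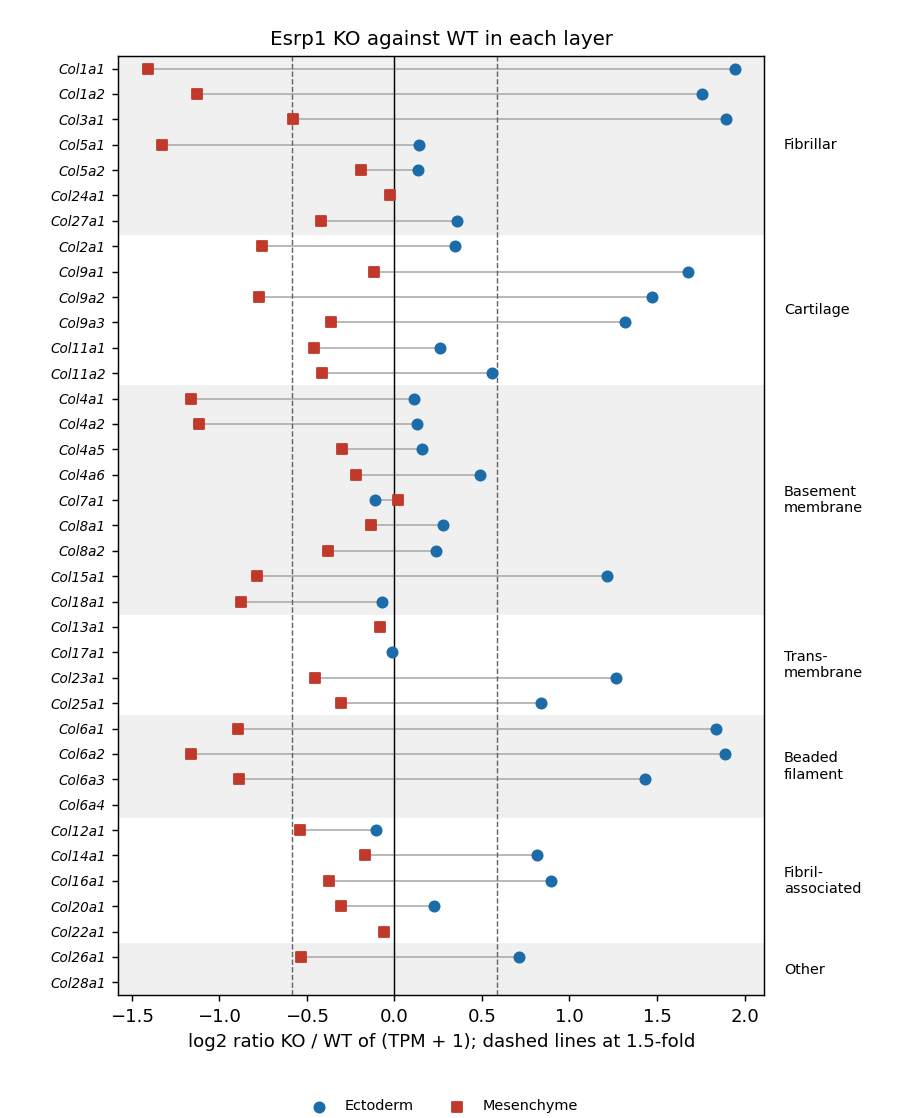
Log2 ratio of KO to WT (horizontal, TPM plus 1) of each collagen chain in ectoderm (blue circles) and mesenchyme (red squares), with a grey line joining both values of a chain and dashed lines at 1.5-fold; values with a mean below 1 TPM are not drawn. The ectoderm points of types I, III, VI and IX lie between 1.31 and 1.95, and those of Col17a1, Col18a1 and Col7a1 next to 0.

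The layer contrast of the family was therefore narrower in KO tissue. At least 2-fold higher in KO mesenchyme than in KO ectoderm were 15 of 34 chains, against 6.88% of all genes, and 6 of 34 were higher in KO ectoderm, against 9.06%; the sixth was Col14a1. Col1a1 was 23.5 times higher in mesenchyme than in ectoderm in WT and 2.01 times in KO, on the TPM scale. For Col3a1 these values were 26.0 and 4.57, for Col1a2 24.6 and 3.21 and for Col6a2 31.6 and 3.07. For 33 of 34 chains the log2 ratio of mesenchyme to ectoderm was lower in KO than in WT, Col7a1 being the exception. The median over all genes was lower in KO as well, at 0.15 in WT and -0.001 in KO. Of the 28 chains with more transcript in WT mesenchyme, 4 had more in ectoderm in KO: Col4a1, Col4a2, Col5a1 and Col11a2. The shares of all genes with a lower ratio or a change of side were not counted.

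The narrowing was smaller after the trend with transcript GC content was subtracted from each comparison of layers. At least 2-fold higher in mesenchyme were then 20 of 34 chains in WT, against 9.96% of all genes, and 17 of 34 in KO, against 7.6%. In each genotype 5 of 34 were higher in ectoderm, against 8.01% of all genes in WT and 7.42% in KO. The median over the chains was 1.53 in WT and 1.005 in KO, where it had been 1.76 and 0.59. Over all genes it was then 0.009 in WT and 0.033 in KO. The ratio was lower in KO for 31 of 34 chains, all but Col7a1, Col8a2 and Col17a1, and Col1a1 was at 4.03 in WT and 1.36 in KO. Col4a1, Col4a2 and Col5a1 still had more in ectoderm in KO, Col11a2 did not (0.06), and Col5a1 was no longer 2-fold higher in WT mesenchyme (0.74).

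**Figure D4:**
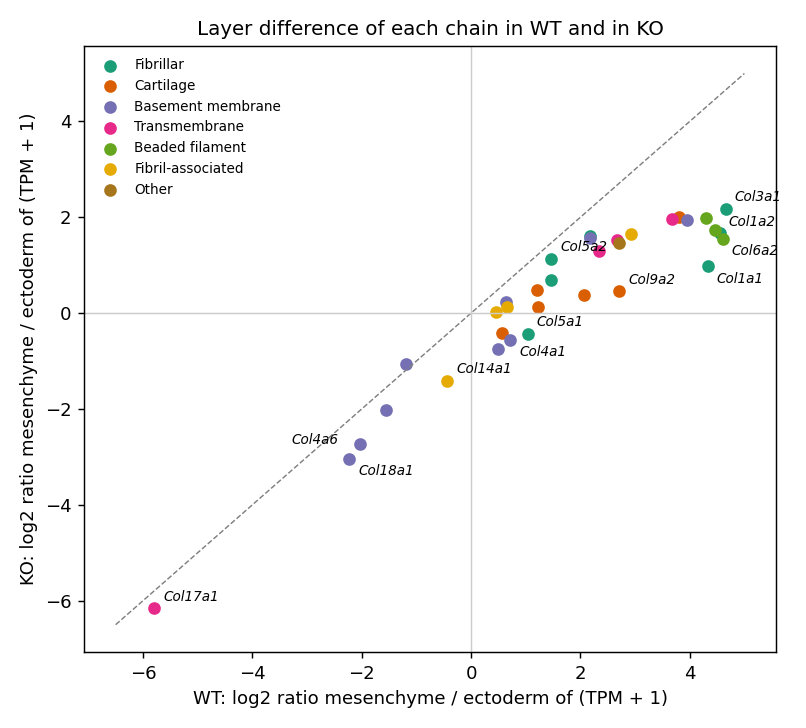
Log2 ratio of mesenchyme to ectoderm (TPM plus 1) of each collagen chain in WT (horizontal) and KO (vertical), coloured by class, with the dashed line marking equal ratios. Points lie below the line except Col7a1, and the distance is wide for the chains of types I, III and VI, such as Col1a1 at 4.33 in WT and 0.98 in KO.

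Markers of mesenchymal cell types moved with the chains in KO ectoderm. Over all genes 4.92% were at least 1.5-fold higher there and 0.452% lower, the shares to set beside each list below. Of 21 mesenchymal genes without collagens 17 were higher and none lower, and their sum was 413 TPM in WT ectoderm and 722 in KO ectoderm. Prrx1, a transcription factor of facial mesenchyme, was at 9.22 and 40.4 TPM. Endothelial markers were higher in 9 of 10 cases (sums 23.5 and 59.3 TPM over the list) and skeletal muscle markers in 7 of 7 (16.7 and 68.3 TPM). No marker of these lists was under 0.1 TPM in KO ectoderm. Red blood cell genes added to 3900 and 4151 TPM, with 1 of 9 higher. Among lists nearer to the chains' own tissues, 2 of 6 cartilage genes without collagens (33.4 and 37.7 TPM) and none of 3 bone genes (18.7 and 25.4 TPM) were higher, and of neuronal genes 5 of 7 (91.0 and 119 TPM).

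The gain of a chain in KO ectoderm can be set in proportion to its excess in mesenchyme. Over the 17 chains with a 5-fold or larger excess in mesenchyme of WT embryos, the gain was a median 11.9% of that excess (quartiles 10.6 and 14.8). Over 18 mesenchymal genes without collagens it was 9.60% (quartiles 6.64 and 11.2). Endothelial genes had a median gain of 10.05% (11 genes, quartiles 9.23 and 12.4). Skeletal muscle genes had a larger median gain than the chains, at 14.7% (10 genes, quartiles 13.1 and 16.3). Most chains lay close together: the gain was 11.2% for Col3a1, 10.6% for Col1a2, 14.9% for Col1a1, 12.2% for Col6a1 and 9.06% for Col6a3. Col9a2 stood highest at 32.04% and Col8a2 lowest at 5.02%, and 3 cartilage genes without collagens had 17.8% to 21.9%.

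When 9.60% of the WT mesenchyme profile was subtracted from KO ectoderm, 8 of 32 chains were at least 1.5-fold higher and none was lower, against 2.78% and 0.585% of all genes. The profile was that of WT, although 12 of 34 chains were lower in KO than in WT mesenchyme. The values after subtraction depend on this choice, and the KO profile was not subtracted. Of the mesenchymal genes without collagens 3 of 20 tested were then higher and 5 lower. The 9.60% was itself the median gain of 18 genes of this list. Their spread to both sides follows from that choice and is no comparison with the chains. In other lists, 4 of 5 muscle, 3 of 5 neuronal and 3 of 5 macrophage genes were still higher. So were 1 of 4 endothelial and 1 of 5 cartilage genes without collagens, and none of 3 bone genes. A surplus after subtraction was thus not particular to the chains. The 8 chains were Col1a1 (1.09), Col6a1 (0.68), Col6a2 (0.60), Col9a1 (1.04), Col9a2 (1.25), Col9a3 (1.21), Col14a1 (0.90) and Col4a6 (0.61), the last having been within the limit before. Col1a2 (0.33) and Col3a1 (0.52) were then within 1.5-fold, and Col6a3 (-0.17) and Col15a1 (-0.11) were below 0. Col9a2, Col9a3 and Col14a1 were thus little changed by the subtraction, and Col9a1 and the chains of types I, III and VI were reduced by it.

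Markers of cell types also differed between KO and WT mesenchyme. Lower in KO were 9 of 21 mesenchymal genes without collagens (sums 3128 and 2562 TPM), 4 of 10 muscle genes (362 and 269 TPM), 3 of 5 bone genes (80.5 and 47.97 TPM) and 3 of 12 endothelial genes (360 and 275 TPM), against 13.4% of all genes. Higher were 5 of 8 neuronal genes (192 and 298 TPM), against 2.33%, and no epithelial gene of 12 was called in either direction. Of 7 cartilage genes without collagens 2 were lower (Sox9 and Acan) and 2 higher (Sox5 and Hapln1). Erg was the 1 endothelial gene higher. After subtraction of the GC trend, described below, 2.11% of all genes were lower and 4.68% higher. Lower were then 6 of 21 mesenchymal, 1 of 10 muscle, 1 of 5 bone, 1 of 12 endothelial and 1 of 7 cartilage genes. Higher were 8 of 8 neuronal, 2 of 12 epithelial, 1 of 12 endothelial and 1 of 7 cartilage genes. Mitochondrially encoded transcripts made up 7.20% of the WT column and 9.61% of the KO column. The part of these differences in the chains' values was not tested.

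In KO mesenchyme the log2 ratios of all genes went with the base composition of their transcripts. Over all 14118 genes with a matched transcript the Spearman correlation between the log2 ratio of KO to WT mesenchyme and transcript GC content was -0.61. The median ratio was 0.13 for genes of 40 to 45% GC and -0.42 for those of 55 to 60% GC. Collagen transcripts are rich in G and C, with a median of 56.3% over the 34 chains tested against 50.1% over all genes, and the correlation across these chains was -0.32. The points share the libraries of both groups, and genes are not independent replicates. In ectoderm the correlation over all genes was 0.30 and over 32 chains -0.07.

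**Figure D5:**
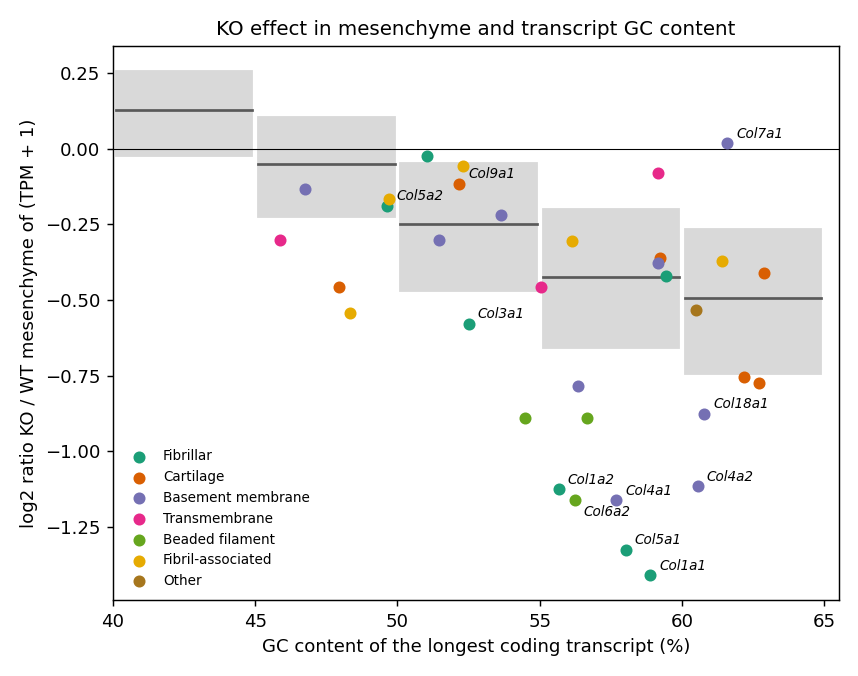
Log2 ratio of KO to WT mesenchyme (vertical, TPM plus 1) of each collagen chain against the GC content of its longest coding transcript (horizontal, percent), over grey boxes that give the quartiles and median of all genes tested in bins of GC. Col1a1 (-1.41), Col5a1 (-1.33), Col1a2 (-1.13) and Col6a2 (-1.16) lie below the lower quartile of genes of like GC, and Col7a1 (0.02) lies above them.

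After the trend with GC was subtracted, 5 of 34 chains were at least 1.5-fold lower in KO mesenchyme, against 2.11% of all genes, and 1 was higher, against 4.68%. The 5 were Col1a1 (-0.87), Col5a1 (-0.81), Col6a2 (-0.71), Col1a2 (-0.69) and Col4a1 (-0.66), and the 1 higher was Col7a1 (0.61). Col4a2 (-0.54), Col6a3 (-0.51) and Col6a1 (-0.42) stayed below 0 within 1.5-fold, and Col18a1 (-0.29), Col9a2 (-0.16) and Col2a1 (-0.15) came close to 0. The median over the chains was -0.069, against 0.03 over all genes. Col5a1 and Col5a2 remained apart, at -0.81 and -0.02. After GC and then length were subtracted, 4 were lower, against 2.33% of all genes (Col1a1, Col1a2, Col5a1 and Col6a2), 1 was higher, against 2.76% (Col7a1), and the median was 0.022. The cause of the GC trend was not tested, nor was its relation to the uneven index barcodes of the mesenchyme libraries.

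Enzymes and chaperones that process procollagen followed the chains in part. Of 39 listed genes 37 were tested in mesenchyme, and 10 were at least 1.5-fold lower in KO against 13.4% of all genes, and none higher, against 2.33%. The median log2 ratio was -0.36. Among the lower genes were Creb3l1, a transcription factor of collagen secretion (5.11 to 1.89 TPM), Loxl1, an oxidase that cross-links matrix (9.35 to 4.47), and Fkbp10, a chaperone of type I procollagen (102 to 54.4). Loxl2 was at 60.2 and 33.7 TPM. After the GC trend was subtracted none of the 37 was 1.5-fold lower, against 2.11% of all genes, and the median was -0.09. Prolyl hydroxylase subunit P4hb (418 and 308 TPM) and the collagen chaperone Serpinh1 (599 and 518 TPM) were the most abundant with Ppib (498 and 501 TPM), all within 1.5-fold.

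In KO ectoderm 8 of 36 processing genes were higher, against 4.92% of all genes, and none lower, against 0.452%. The median log2 ratio was 0.34. Lox, which starts the cross-linking of fibrils, was at 1.10 TPM in the WT group and 5.65 in the KO group (log2 ratio 1.66). P3h3, a subunit of lysyl hydroxylation complexes, was at 20.98 and 41.2 TPM, Pcolce, an enhancer of propeptide removal, at 14.8 and 26.8, and Adamts3, a propeptide protease, at 0.76 and 2.04. In WT embryos all 4 were also at least 2-fold higher in mesenchyme. After subtraction of the mesenchyme share 2 were still higher, Lox and Adamts3.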

How the data were processed

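The authors deposited a table of TPM per gene symbol with 1 column per group, each standing for 4 libraries. STAR 2.5.2a, kallisto 0.43.0 and mm10 are named per the submitters' processing notes. Which tool gave the TPM, with which annotation and how the libraries of a group were joined is not given in the sources used here. The table had 30391 rows, and of repeated symbols only the row of largest sum entered (no collagen symbol was repeated). With 1 value per group no test across libraries was possible. Log2 ratios used TPM plus 1, a mean of at least 1 TPM, 1.5-fold for KO and 2-fold for layers.

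The members and lists were chosen with earlier results of these data known. Every chain at 10 TPM or more, the extremes of each class and trimer partners are given by value. From the processing, fibril partner and receptor lists up to 4 genes with the largest ratios beyond 1.5-fold were named, and from marker lists up to 2 genes of any ratio; Serpinh1, P4hb, Ppib and Fmod were added after their values were seen. Coordinates, length and GC come from GENCODE M21 on GRCm38, the longest coding transcript per symbol (99.0% of symbols and all 37 chains matched). GC and length trends were lowess fits (statsmodels 0.14.6, fraction 0.3, genes of 5 TPM or more), and they may overcorrect low genes. Subtraction of the GC trend was tested on simulated data with a linear trend. Subtraction of the length trend, alone or after GC, was not. The mesenchyme share was the median gain of 18 marker genes. Alternatives covered pseudocount, filter, scaling, GC, length and repeated symbols; those for the KO layers and for the medians between layers were chosen after seeing the data.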

Additional observations from a re-analysis of the deposited data

Results flagged for a closer look

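For 7 chains KO was at least 1.5-fold above WT in ectoderm and at least 1.5-fold below it in mesenchyme. The share of all genes for which this held was not counted. After the GC trend was subtracted, Col6a1 (-0.42), Col6a3 (-0.51), Col9a2 (-0.16) and Col15a1 (-0.33) were within 1.5-fold in mesenchyme. Ectoderm ratio minus mesenchyme ratio, on the log2 scale, was 3.35 for Col1a1, 3.05 for Col6a2, 2.88 for Col1a2, 2.73 for Col6a1, 2.32 for Col6a3, 2.25 for Col9a2 and 1.996 for Col15a1. These differences between the layers were not tested, since the table holds 1 value per group. The difference was 2-fold or more in this direction for 18 of the 31 chains tested in both layers and for 973 of 13283 genes, and in the other direction for none of the chains.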

How the results depend on the processing

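The counts of chains higher or lower between WT layers kept within 1.5 times their values under the alternatives run. The median ratio of mesenchyme to ectoderm in KO (0.59) was 1.005 after GC and 1.033 after GC and length, alternatives chosen after seeing the data. In KO ectoderm the count of higher chains (15) came to 8 after subtraction of the mesenchyme share, and the median (0.52) to 0.22; with a pseudocount of 5 the median was 0.34. In KO mesenchyme the count of lower chains (12) was 5 after GC and 4 after GC and length, and higher chains were 1 and 1. The median (-0.44) was -0.29 after quantile normalization, -0.27 after length, -0.069 after GC and 0.022 after GC and length; quantile normalization moved the median of all genes from -0.12 to 0.02. Processing genes lower in KO mesenchyme (10) numbered 4 after quantile normalization, 4 after length, 0 after GC and 0 after GC and length. Those higher in KO ectoderm (8) numbered 3 with a pseudocount of 5, 4 at a mean of 5 TPM (27 tested) and 4 after quantile normalization. The shares of all genes under quantile normalization, length alone, that pseudocount and that filter were not counted. Whether all genes dropped alike under these settings is therefore not shown. After subtraction of the mesenchyme share, Col15a1 turned to -0.11 and Col6a3 to -0.17 in ectoderm. Where a correction by its construction removes a trend, its effect follows from it; otherwise the cause was not tested. No paired analysis was possible because the table has 1 column per group; libraries could not be left out in turn for the same reason. Depth is unknown.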

Other observations

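Proteins that bind collagen fibrils differed among themselves in KO tissue. In KO ectoderm 6 of 15 listed partners were at least 1.5-fold higher, against 4.92% of all genes, and 1 lower, against 0.452%. Ogn and Lum, small leucine-rich proteoglycans of fibrils, were at 1.76 and 7.83 TPM and at 5.11 and 17.7 TPM in WT and KO, and Postn, a matricellular protein of mesenchyme, at 13.5 and 38.5. Fmod, a related proteoglycan with more transcript in WT ectoderm (21 TPM) than in WT mesenchyme (1.46 TPM), was lower in KO ectoderm, at 12.4 TPM. In KO mesenchyme 4 of 14 were lower, against 13.4% of all genes, and none higher: Fn1, the fibronectin on which collagen fibrils assemble (515 to 252 TPM), Tnc (59.4 to 29.3), Fbn2 (104 to 53.7) and Fbn1 (44.8 to 28.6). After the GC trend was subtracted Fn1, Tnc and Fbn2 were still 1.5-fold lower, against 2.11% of all genes. Lum (89.6 and 103.9 TPM) and Ogn (38 and 44.9 TPM) did not share this difference.

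Collagen receptors were divided between the layers in WT tissue. Ddr1, the discoidin receptor of epithelia, was at 116 TPM in ectoderm and 23.0 in mesenchyme, and Ddr2, its counterpart for fibrillar collagens in mesenchyme, at 3.66 and 101. In KO ectoderm Ddr1 was at 113 TPM and Ddr2 at 12.5. Ddr2 was the 1 of 8 receptors tested that was beyond 1.5-fold, against 4.92% of all genes higher and 0.452% lower. In KO mesenchyme 3 of 10 were lower, against 13.4% of all genes. They were Ddr1 (12.8 TPM), Itga11, an integrin chain for fibrillar collagens (6.56 to 3.40 TPM), and Mrc2, an endocytic collagen receptor (78.0 to 50.6 TPM). None was lower after the GC trend was subtracted, against 2.11% of all genes.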
